A study of Mus musculus with 14 samples.

Results

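Regulatory T cells (Tregs) are CD4 T cells that restrain immune responses, and 9 genes that define them were followed here across resting and activated Tregs with or without a conditional deletion of Atg14. They were Foxp3, Ikzf2, Ikzf4, Il2ra, Nt5e, Entpd1, Lrrc32, Nrp1 and Gpr83, taken by symbol from the 21902 gene symbols on the array, and each was read by 1 transcript cluster (the set of probes that reads a gene). The clusters were found by symbol alone, but the 9 genes had been listed with earlier results of these data known.

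Foxp3 is the transcription factor on which Treg identity rests, and Ikzf2 (Helios) and Ikzf4 (Eos) are zinc finger factors of the Ikaros family that work with it. Il2ra encodes CD25, the chain that gives the interleukin-2 receptor its high affinity and through which Tregs take up the cytokine they depend on. On the cell surface, Entpd1 (CD39) and Nt5e (CD73) act in series to turn extracellular ATP into adenosine, which dampens T cell activation. Lrrc32 (GARP) holds latent TGF-beta on the membrane, Nrp1 (neuropilin-1) is a receptor for semaphorins that marks many thymus-derived Tregs, and Gpr83 is a G protein-coupled receptor enriched in Tregs. Tregs are commonly divided into central cells (cTregs), which recirculate through lymphoid organs, and effector cells (eTregs), which have responded to antigen.

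The cells came from mixed bone marrow chimeras on the C57BL/6 background. CD45.2+ marrow of Foxp3Cre Atg14+/fl donors (the control, called heterozygous in the labels) or of Foxp3Cre Atg14fl/fl donors (labelled Atg14 KO) was combined in equal amounts with wild-type CD45.1+ marrow and given to Rag1-/- hosts, which lack T and B cells of their own, after sublethal irradiation. The hosts were left for 6 to 8 weeks, and their age was not given in the sources used here. In all 4 groups Cre was driven by Foxp3, so that deletion was directed at Tregs, and the controls also carried Cre and 1 floxed allele. CD4+Foxp3-YFP+ cells low in CD44 were sorted as cTregs and cells high in CD44 as eTregs, with another surface marker also in the gate, from spleen and peripheral lymph nodes by the series description and from spleen by the methods. There were 4 arrays of control cTregs, 3 of KO cTregs, 4 of control eTregs and 3 of KO eTregs, written below by group and replicate number. The study's text counts as many chimera mice per genotype as there were arrays of each subset, so that both subsets may have come from the same mice, but neither it nor the labels say which cTreg and eTreg arrays shared a mouse. Precision is limited by how few arrays there are.

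All values are log2 signals as deposited, on which a difference of 1 is a doubling, and their medians over all genes lay between 8.77 and 8.90 on the 14 arrays. Atg14, which encodes a subunit of the autophagy form of the Vps34 lipid kinase complex, did not follow its labels. Its signal was 9.26, 8.96, 8.64 and 8.89 in control cTregs, 9.24, 9.33 and 9.29 in KO cTregs, 8.92, 9.01, 8.77 and 8.64 in control eTregs and 9.15, 9.0 and 9.32 in KO eTregs, a KO minus control difference of 0.32 in eTregs (unadjusted P = 0.0323, adjusted P = 0.55 by limma) and 0.35 in cTregs (unadjusted P = 0.0213, adjusted P = 0.9999). Averaged over both subsets it was 0.34 (unadjusted P = 0.00324, adjusted P = 0.377). Where its probes lie relative to the deleted exons is not given, and what this signal means for the labels was not tested. Every direction by genotype below is that of the arrays labelled KO. Cd44, a gene of the gate, was 1.61 higher in eTregs than in cTregs of controls (adjusted P = 0.000121) and 1.80 higher in the KO arrays (adjusted P = 0.00036).

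Markers of some other cells differed between the groups. The summed linear signal of 15 monocyte and macrophage markers lay between 4630 and 4897 in control cTregs, 5183 and 5611 in KO cTregs and 7140 and 9584 in control eTregs, and was 6041, 30600 and 32540 in the 3 KO eTreg arrays. All 15 of these markers had a positive eTreg minus cTreg difference in controls, with a median of 0.71, of which 0 passed the adjusted and 6 the study threshold (both explained below). In the KO arrays 7 of 15 passed the adjusted and 14 the study threshold between subsets, and between KO and control eTregs 0 and 9 did. For 11 conventional dendritic cell markers the sum was 10210 to 10780 in control cTregs, 10960 to 12110 in KO cTregs, 12220 to 13580 in control eTregs, and 12460, 24850 and 31890 in KO eTregs. Of these 11, 8 had a positive subset difference in each genotype. Itgax, H2-Aa, H2-Ab1 and H2-Eb1 passed the adjusted threshold in the KO arrays, and none did in controls. Between KO and control eTregs 7 of 11 were positive, with 0 past the adjusted and 6 past the study threshold. The 12 plasmacytoid dendritic cell markers summed to 12390 to 14480, 11940 to 14300, 12450 to 14200 and 14190 to 18040 in the same order of groups. Siglech, a defining receptor of these cells, was 9.78, 10.79 and 10.65 in KO eTregs against 8.37 to 8.86 in control eTregs. This was a rise of 1.78 (adjusted P = 0.000483). Of the 12 markers, 8 were positive between KO and control eTregs, with 5 past the study threshold and Siglech alone past the adjusted threshold. Between subsets in controls 8 of 12 were positive, and at the adjusted threshold Runx2 was higher and Tlr7 lower in eTregs. In the KO arrays 9 of 12 were positive between subsets, with 4 past the adjusted threshold. None of the defining markers was at 0, since array signals have a floor: Mrc1, a macrophage receptor, lay between 6.02 and 6.94 on the 7 cTreg arrays against background probe medians of 6.00 to 6.30, and reached 7.29, 11.29 and 10.64 in KO eTregs. KO eTreg 2 and KO eTreg 3 thus stood apart in macrophage signal, and they also lay apart on the first principal component, at 39.9 and 39.5 against 5.26 to 21.9 for control eTregs and -4.30 for KO eTreg 1. The 15 T cell identity genes summed to 104700 to 115300 over all 14 arrays. Over the same arrays, 10 neutrophil markers summed to 2356 to 3080 and 11 B cell markers to 3069 to 4854. The sums of 10 erythroid markers, 3976 to 17600, overlapped between all groups.

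In controls, 3 of the 9 identity genes rose from cTregs to eTregs, namely Nt5e, Ikzf2 and Nrp1, at an absolute log2 difference of 0.5 or more and an adjusted P below 0.05 (the adjusted threshold, with Benjamini-Hochberg adjustment over 22203 transcript clusters). None fell at that threshold. Over all transcript clusters 3.06% were called. The same size with an unadjusted P below 0.05, which the study's methods allow beside the adjusted one (the study threshold below), added Gpr83, which was lower in eTregs (4 of 9, against 4.72% of all). The same 4 genes had no overlap between the arrays of the 2 subsets, against 11.1% of all. Foxp3, Ikzf4 and Lrrc32 passed neither threshold here or in any of 24 alternatives. Il2ra and Entpd1 did not pass either, but Il2ra passed the study threshold in 10 of 23 alternatives and Entpd1 in 1 of 24. The median difference over the 9 members was 0.03 against 0.00264 over all transcript clusters. In the KO arrays the adjusted threshold was passed by Nt5e alone among the members, where 2.35% of all were called. Nt5e was also the single member past the study threshold there (5.81% of all), and Ikzf2 joined it among genes with no overlap between subsets (14% of all).

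**Figure D1:**
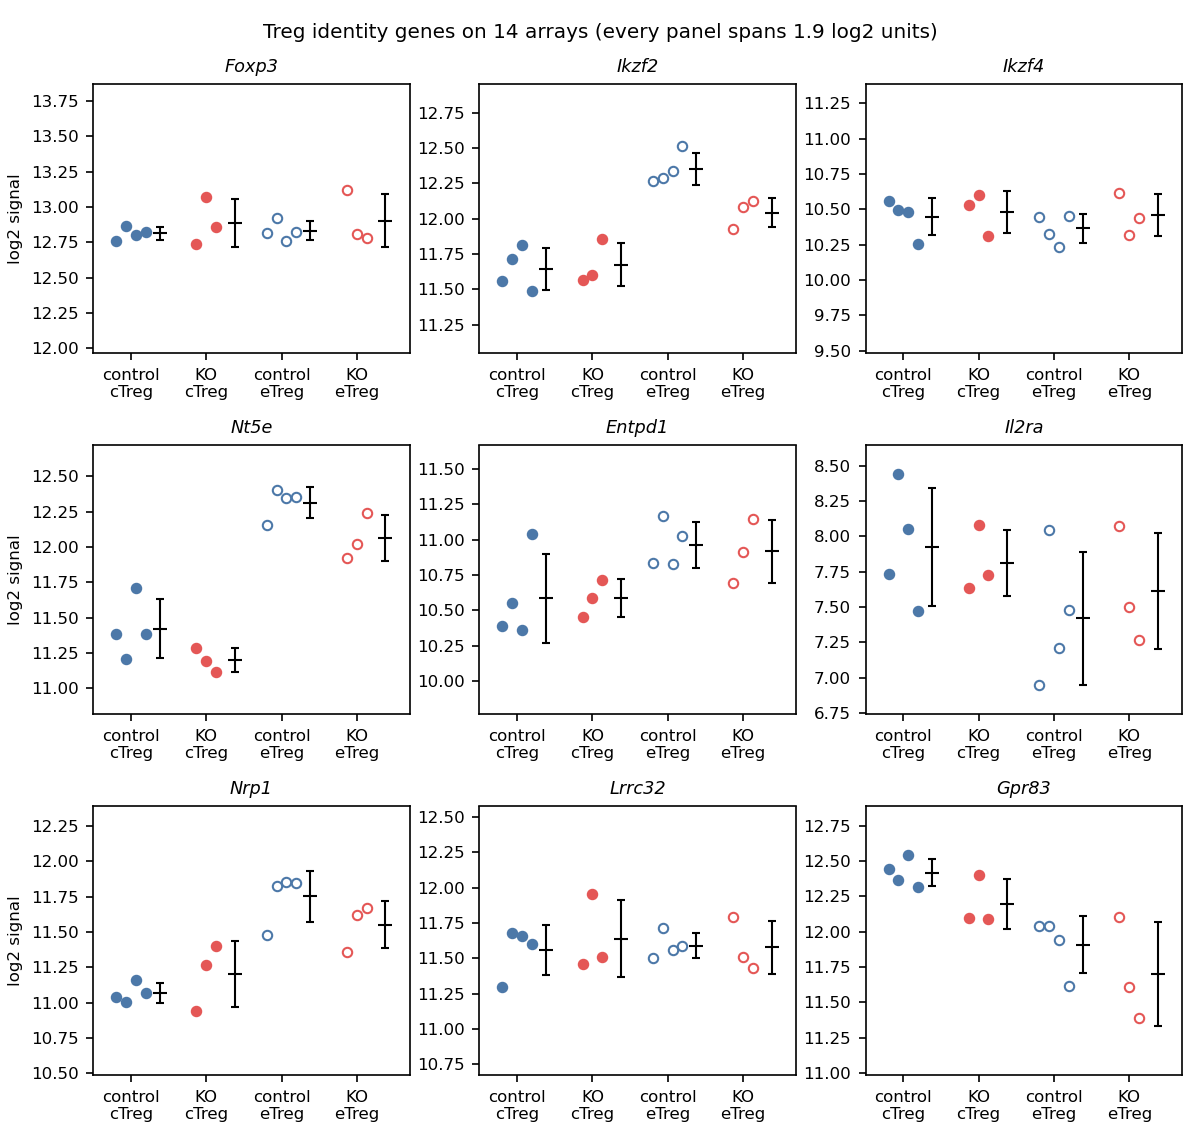
Log2 signal of the 9 Treg identity genes on each of the 14 arrays, filled circles for cTregs and open circles for eTregs, blue for controls and red for arrays labelled KO, with black bars for the group mean and SD (n = 4, 3, 4 and 3). Every panel spans the same number of log2 units, and Nt5e, Ikzf2 and Nrp1 of control eTregs sit above all control cTreg arrays while Foxp3 stays between 12.73 and 13.12.

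Foxp3 (TC0X00000058.mm.2, chromosome X) was level across the 4 groups. Its signal was 12.76, 12.87, 12.80 and 12.82 in control cTregs, 12.73, 13.07 and 12.86 in KO cTregs, 12.82, 12.92, 12.76 and 12.82 in control eTregs and 13.12, 12.81 and 12.78 in KO eTregs. The groups overlapped in every pairing, and no neighbours in the order of group means (12.81 in control cTregs, 12.83 in control eTregs, 12.89 in KO cTregs, 12.90 in KO eTregs) differed beyond their spread. The eTreg minus cTreg difference in controls was 0.02 with a 95% interval of -0.20 to 0.23, and the KO minus control difference was 0.07 in eTregs (interval -0.16 to 0.30) and 0.07 in cTregs (interval -0.16 to 0.31). All cells had been sorted for Foxp3-YFP, so Foxp3 was also the gene of the gate.

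Ikzf2 (TC0100002534.mm.2, chromosome 1) was the transcription factor of the set that separated the subsets. It was 11.56, 11.72, 11.81 and 11.49 in control cTregs and 12.27, 12.28, 12.33 and 12.51 in control eTregs, and 11.57, 11.60 and 11.85 in KO cTregs and 11.92, 12.08 and 12.12 in KO eTregs. Every eTreg array exceeded every cTreg array, and KO eTregs lay between the cTregs and the control eTregs without overlap with either. In controls Ikzf2 rose by 0.71 ± 0.11 (SE), a 1.63-fold higher signal (adjusted P = 0.000794). Among KO arrays the difference was 0.37 ± 0.12 and missed the adjusted threshold (adjusted P = 0.15). The order of group means was control cTreg 11.64, KO cTreg 11.67, KO eTreg 12.04 and control eTreg 12.35, and the 2 cTreg groups at the low end were not separated by their spread.

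Ikzf4 (TC1000003156.mm.2, chromosome 10), the other Ikaros family member of the set, did not separate the groups. Its arrays lay between 10.23 and 10.62 and its group means between 10.36 and 10.48, with an eTreg minus cTreg difference of -0.08 in controls (interval -0.31 to 0.14). The remaining Ikaros family genes measured were Ikzf1, Ikzf3 and Ikzf5, and 0 of 3 passed the adjusted threshold in any contrast by limma, with 2 at an unadjusted P below 0.05 between subsets in controls, 1 in the KO arrays and 0 between genotypes. Ikzf1 (Ikaros) and Ikzf3 (Aiolos) were named after their values were seen. Ikzf1 differed by -0.29 and Ikzf3 by -0.40 between subsets in controls, each with no overlap between arrays and adjusted P values of 0.0896 and 0.1.

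Among 25 genes that regulate the Foxp3 locus or act with Foxp3, 3 passed the adjusted threshold between subsets in controls. Nr4a2, an orphan nuclear receptor induced by antigen receptor signals, rose by 0.51 (adjusted P = 0.00614). Satb1, a chromatin organiser of the T cell genome, fell by 1.08 (adjusted P = 9.94e-05), and Bach2, a repressor that holds back effector genes, fell by 0.83 (adjusted P = 0.00105). In the KO arrays Satb1 also fell, by 0.75 (adjusted P = 0.0103), and Ezh2, a histone methyltransferase, rose by 0.54 (adjusted P = 0.0464). The call on Nr4a2 was lost on subtraction of array medians and without any of control cTreg 1, control cTreg 2, control eTreg 2 or control eTreg 4 (differences of 0.47 to 0.49). Among KO arrays the Satb1 call was lost without KO eTreg 2 (-0.69) or KO eTreg 3 (-0.64), and the Ezh2 call on removal of any array except KO cTreg 2 and KO eTreg 1 (0.43 to 0.56). Over all lists of this kind, 21 genes passed between subsets in the KO arrays with no overlap between arrays. Removing KO eTreg 2 and KO eTreg 3 together leaves KO eTreg 1 alone, assumed to vary like the other groups. Standard errors are then wider. A call lost in that setting, here and below, therefore cannot separate lost precision from dependence on those arrays. With the KO arrays fitted alone 15 of the 21 lost the call, and Tigit, Penk, Il4, Il21, Ifng and Dapl1 kept it. Satb1 was -0.40 and Ezh2 0.27 without both arrays. The median difference over the 25 genes in controls was -0.000965 against 0.00264 over all, and 0 of 25 passed in either genotype contrast by limma (2 in eTregs and 0 in cTregs at an unadjusted P below 0.05).

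Both ectoenzymes of the adenosine pathway had higher means in eTregs, and Nt5e passed the adjusted threshold. Nt5e (TC0900001128.mm.2, chromosome 9) had the largest subset difference of the 9 members in both genotypes. Its signal was 11.38, 11.20, 11.71 and 11.39 in control cTregs and 12.15, 12.40, 12.34 and 12.36 in control eTregs, and 11.29, 11.19 and 11.11 in KO cTregs and 11.92, 12.02 and 12.24 in KO eTregs. No eTreg array reached down to a cTreg array in either genotype. Nt5e rose by 0.89 ± 0.11 (SE) in controls, 1.86-fold (adjusted P = 0.000236), and by 0.86 ± 0.13 in the KO arrays, 1.82-fold (adjusted P = 0.00197). Without KO eTreg 2 and KO eTreg 3 together, the KO difference was 0.72 (adjusted P = 0.164, the remaining array being assumed to vary like the other groups). The group means ran from 11.20 in KO cTregs through 11.42 in control cTregs and 12.06 in KO eTregs to 12.31 in control eTregs, and the arrays of each genotype pair overlapped within a subset.

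Entpd1 (TC1900000572.mm.2, chromosome 19), the enzyme one step earlier, was more scattered. It was 10.39, 10.55, 10.36 and 11.04 in control cTregs, 10.45, 10.59 and 10.72 in KO cTregs, 10.84, 11.16, 10.83 and 11.02 in control eTregs and 10.69, 10.92 and 11.14 in KO eTregs. Control cTreg 4 lay among the eTregs and the other 3 control cTregs lay below all of them. The subset difference was 0.38 in controls (interval 0.06 to 0.69, adjusted P = 0.254) and 0.33 in the KO arrays (adjusted P = 0.424). Without control cTreg 4 the difference in controls was 0.53 and passed the adjusted threshold (adjusted P = 0.0372). Entpd1 is also expressed by macrophages and dendritic cells. Macrophage and conventional dendritic cell marker sums were higher in eTregs than in cTregs of each genotype, while plasmacytoid dendritic cell sums overlapped (above). In KO eTregs the lowest Entpd1 value was in the array with the lowest macrophage sum. Without the other pair, KO eTreg 2 and KO eTreg 3, the KO difference was 0.10. The part of those cells in its signal was not tested. In RNA of a sorted pool, fewer cells of a type and less RNA per cell cannot be told apart.

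Of 17 further adenosine pathway genes measured (enzymes, transporters and receptors), 2 passed the adjusted threshold in controls. Cd38, an ectoenzyme that consumes NAD, rose by 1.42 (adjusted P = 0.00461), and Ada, which deaminates adenosine, fell by 1.05 (adjusted P = 0.0108). Cd38 rose in the KO arrays by 1.77 (adjusted P = 0.00441), but not when those arrays were fitted alone (adjusted P = 0.0653) or without KO eTreg 2 and KO eTreg 3 together (0.86, adjusted P = 0.326). The median difference of the 17 genes in controls was 0.12 against 0.00264 over all, and 0 of 17 passed in either genotype contrast by limma (3 in eTregs and 1 in cTregs at an unadjusted P below 0.05).

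Il2ra (TC0200000220.mm.2, chromosome 2) had the widest range between arrays of the 9 members in every group but KO cTregs. Its signal was 7.73, 8.44, 8.05 and 7.47 in control cTregs, 7.63, 8.08 and 7.72 in KO cTregs, 6.94, 8.05, 7.21 and 7.48 in control eTregs and 8.07, 7.50 and 7.27 in KO eTregs. Each group overlapped each other group. The signal was low, with every array below the array medians of 8.77 to 8.90, where background probe medians were 6.00 to 6.30. The eTreg minus cTreg difference in controls was -0.50 with an interval of -1.01 to 0.0078 (adjusted P = 0.401). The main fit could therefore not tell a fall of about that size from no difference. This difference passed the study threshold, though not the adjusted one, in 10 of 23 alternatives, the replicate block fits among them. It was -0.33 without control cTreg 2 and -0.71 without control eTreg 2 (adjusted P = 0.774 and 0.145). In the KO arrays the difference was -0.20 (interval -0.79 to 0.39), and 0.26 without KO eTreg 2 and KO eTreg 3 together. By genotype it was 0.19 in eTregs (interval -0.36 to 0.74) and -0.11 in cTregs (interval -0.66 to 0.44). Of 13 other genes of the interleukin-2 receptor pathway, 0 passed the adjusted or the study threshold between subsets in either genotype by limma, with 1 in controls and 3 in KO arrays at an unadjusted P below 0.05, and their median difference in controls was -0.05 against 0.00264 over all. Its partner chains Il2rb and Il2rg, named after their values were seen, differed by 0.17 and 0.0031 between subsets in controls.

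Nrp1 (TC0800001594.mm.2, chromosome 8) was higher in eTregs of controls. It was 11.04, 11.00, 11.16 and 11.07 in control cTregs and 11.48, 11.83, 11.86 and 11.85 in control eTregs, and 10.94, 11.26 and 11.40 in KO cTregs and 11.36, 11.62 and 11.67 in KO eTregs. The control subsets did not overlap, and KO cTreg 3 lay above KO eTreg 1. Nrp1 rose by 0.68 ± 0.12 (SE) in controls, 1.61-fold (adjusted P = 0.00341), and the difference in the KO arrays was 0.35 ± 0.14 (adjusted P = 0.26). Group means ran from 11.07 in control cTregs and 11.20 in KO cTregs to 11.55 in KO eTregs and 11.75 in control eTregs, and neighbours in this order overlapped. Neuropilin-1 is also made by macrophages and plasmacytoid dendritic cells. In controls the macrophage marker sum and Nrp1 were both higher in eTregs than in cTregs. Within control cTregs, sums of 4736, 4888, 4630 and 4897 stood beside Nrp1 of 11.04, 11.00, 11.16 and 11.07. Within control eTregs, sums of 8100, 9584, 7700 and 7140 stood beside Nrp1 of 11.48, 11.83, 11.86 and 11.85. For KO eTregs, sums of 6041, 30600 and 32540 stood beside Nrp1 of 11.36, 11.62 and 11.67. Siglech was higher in all 3 KO eTreg arrays than in any control eTreg array. It was the 1 of 12 plasmacytoid dendritic cell markers past the adjusted threshold in that comparison. Without KO eTreg 2 and KO eTreg 3 together the subset difference of Nrp1 in the KO arrays was 0.16. The part of those cells in the Nrp1 signal was not tested.

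**Figure D2:**
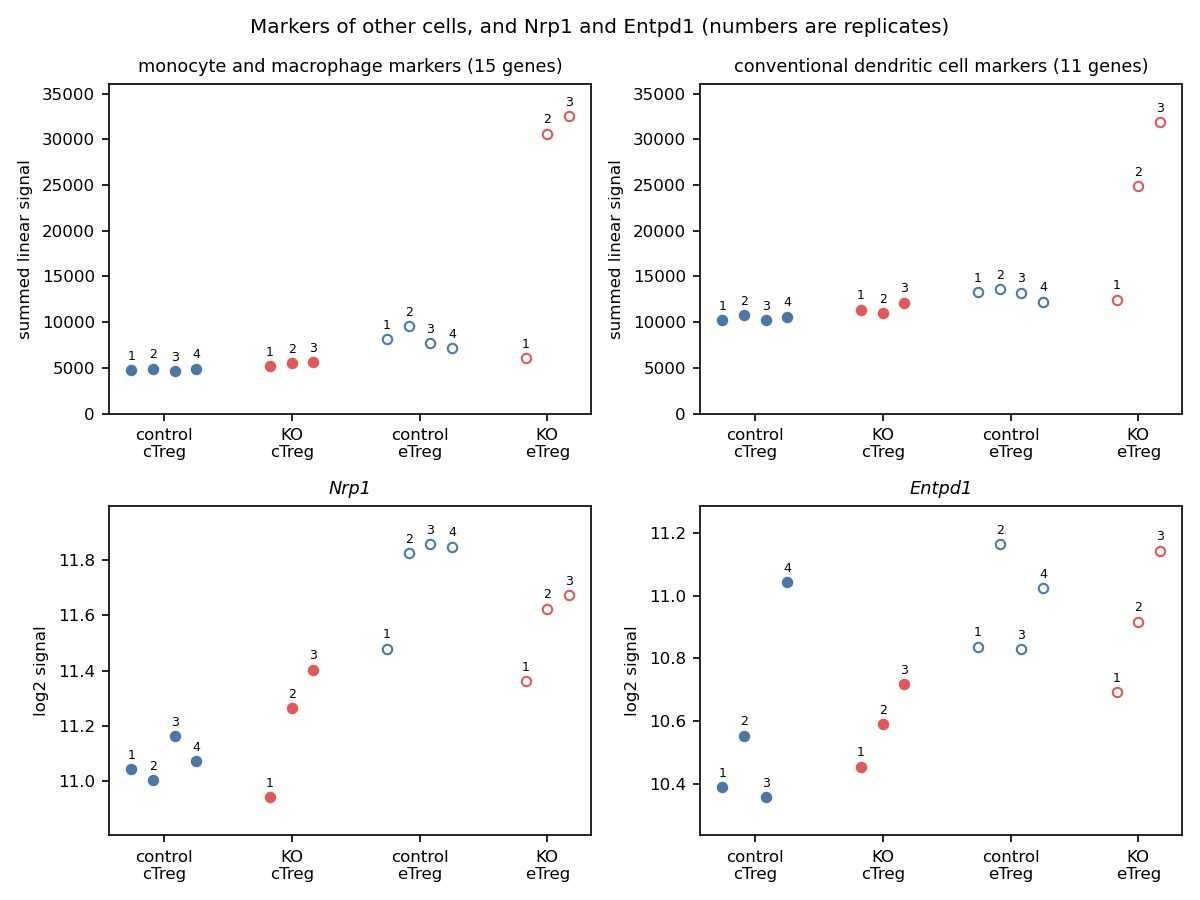
Summed linear signal of 15 monocyte and macrophage markers and 11 conventional dendritic cell markers (top, axes from 0), and log2 signal of Nrp1 and Entpd1 (bottom), each circle an array with its replicate number, filled for cTregs and open for eTregs, blue for controls and red for arrays labelled KO. The macrophage sums of KO eTregs were 6041, 30600 and 32540 in order of replicate, against 7140 to 9584 in control eTregs. Nrp1 in the same KO eTreg arrays was 11.36, 11.62 and 11.67, against 11.48 to 11.86 in control eTregs.

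Of 16 other semaphorin, plexin and neuropilin genes, Plxnc1, a plexin receptor, rose by 0.82 in controls (adjusted P = 0.000212) and by 0.65 in the KO arrays (adjusted P = 0.00746). Plxnb2 rose by 0.71 in the KO arrays (adjusted P = 0.0217). The interaction compares the subset difference between genotypes. No gene of this list passed its adjusted threshold (2 of 16 at an unadjusted P below 0.05). Since 0 of all 22203 transcript clusters passed it, this does not tell whether Plxnb2 differed between genotypes. Lrrc32 (TC0700001368.mm.2, chromosome 7) showed no subset difference, with arrays between 11.29 and 11.95, group means between 11.56 and 11.64, and a difference of 0.03 in controls (interval -0.24 to 0.31). Around it, 3 of 16 genes of the latent TGF-beta pathway passed the adjusted threshold in controls. Itgb8, the integrin subunit that activates latent TGF-beta, rose by 1.42 (adjusted P = 0.000221), the receptor Tgfbr1 rose by 0.70 (adjusted P = 0.0252) and the co-receptor Tgfbr3 fell by 0.62 (adjusted P = 0.0295). Within the KO arrays Itgb8 rose by 0.94 (adjusted P = 0.0236) and the ligand Tgfb3 by 0.53 (adjusted P = 0.0234). The median difference in controls was 0.0039 over the TGF-beta list and -0.0023 over the semaphorin list, against 0.00264 over all, and no gene of either list passed in a genotype contrast by limma at the adjusted threshold, with 3 of each list at an unadjusted P below 0.05 in eTregs and 0 in cTregs. Several of these calls were lost when a single array was left out, in some cases with little change in the difference. Tgfbr1 was lost without any of control cTreg 1, 3 and 4 and control eTreg 2, 3 and 4 (0.65 to 0.73), and Tgfbr3 without any of control cTreg 1 and 2 and control eTreg 1, 3 and 4 (-0.64 to -0.53). Itgb8 was lost in the KO arrays without KO cTreg 1, 2 or 3 or KO eTreg 3 (0.67 to 1.01), Tgfb3 without KO cTreg 2 or 3 or KO eTreg 2 or 3 (0.44 to 0.57), Plxnb2 without KO cTreg 1 or 3 or KO eTreg 2 or 3 (0.55 to 0.73) and Plxnc1 without KO eTreg 3 (0.61). With both KO eTreg 2 and KO eTreg 3 left out, Itgb8 was 0.57, Tgfb3 0.43, Plxnb2 0.34 and Plxnc1 0.53, and these 4 calls were lost.

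Gpr83 (TC0900000113.mm.2, chromosome 9) ran the other way. It was 12.45, 12.37, 12.54 and 12.32 in control cTregs and 12.04, 12.04, 11.94 and 11.61 in control eTregs, and 12.10, 12.40 and 12.09 in KO cTregs and 12.11, 11.61 and 11.39 in KO eTregs. All control eTregs lay below all control cTregs, and KO eTreg 1 overlapped the KO cTregs. The difference was -0.51 ± 0.15 (SE) in controls (unadjusted P = 0.00298, adjusted P = 0.0713) and -0.50 ± 0.17 in the KO arrays (adjusted P = 0.158). Without KO eTreg 1 the difference in the KO arrays was -0.70 and passed the adjusted threshold (adjusted P = 0.00901). The control difference of -0.51 also passed when KO eTreg 1 or KO eTreg 3, which enter only the estimate of spread, was left out (adjusted P = 0.0164 and 0.0443). Group means ran from 12.42 in control cTregs through 12.20 in KO cTregs and 11.91 in control eTregs to 11.70 in KO eTregs.

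**Figure D3:**
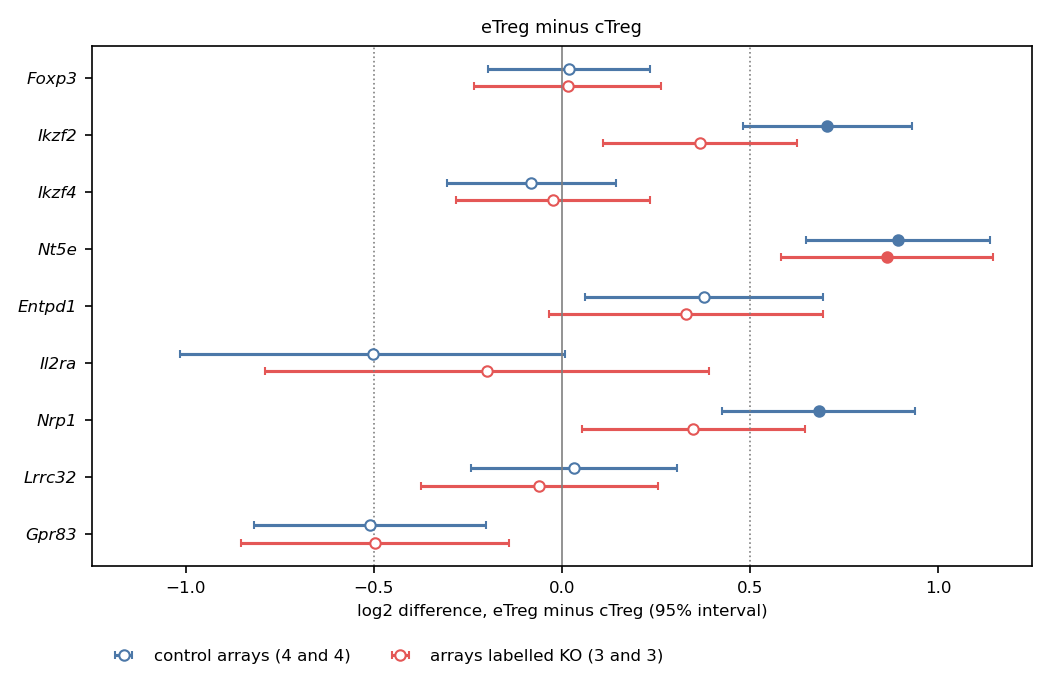
Log2 difference of eTregs minus cTregs for each identity gene, in control arrays (blue) and arrays labelled KO (red), with 95% intervals from limma, filled circles for genes past the adjusted threshold and dotted lines at a difference of 0.5 in each direction. Nt5e is filled in both genotypes (0.89 and 0.86), Ikzf2 and Nrp1 in controls (0.71 and 0.68 against 0.37 and 0.35 in KO arrays), and Gpr83 lies near -0.5 in both.

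No member passed a genotype threshold. Between KO and control eTregs 0 of 9 passed the adjusted threshold by limma (0.117% of all transcript clusters were called) and 0 of 9 the study threshold (2.72% of all), with 1 member at an unadjusted P below 0.05. That member was Ikzf2. Its 3 KO eTreg arrays (11.92 to 12.12) all lay below the 4 control eTregs (12.27 to 12.51), and 6.85% of all transcript clusters had no overlap. By limma P value in this contrast Ikzf2 ranked 796 of 22203 transcript clusters. Atg14 (unadjusted P = 0.0323) ranked 1300 and Nt5e (unadjusted P = 0.06) ranked 2054. At least 1300 and fewer than 2054 transcript clusters thus had an unadjusted P below 0.05. A count of 1 in 9 at that level does not set the members apart from all genes. The Ikzf2 difference was -0.31 with an interval of -0.55 to -0.07 (unadjusted P = 0.016, adjusted P = 0.445), and it was -0.25 without KO eTreg 1 and -0.43 without KO eTreg 2 and KO eTreg 3 together. Nt5e differed by -0.25 (interval -0.51 to 0.01) and Nrp1 by -0.20 (interval -0.48 to 0.08). Without KO eTreg 1 the Nrp1 difference was -0.10, and without KO eTreg 2 and KO eTreg 3 together both were -0.39. The other 6 members lay between -0.21 (Gpr83) and 0.19 (Il2ra). Without KO eTreg 2 and KO eTreg 3 together the Gpr83 difference was 0.20, and without KO eTreg 1 it was -0.41 (adjusted P = 0.22), so its size and direction rested on which KO eTreg arrays were kept.

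Between KO and control cTregs 0 of 9 members passed the adjusted threshold by limma (0.045% of all), 0 the study threshold (0.576% of all) and 0 had no overlap between arrays (5.05% of all), with 0 at an unadjusted P below 0.05. The differences ran from -0.22 (Nt5e, interval -0.48 to 0.04) to 0.13 (Nrp1, interval -0.14 to 0.41). Nt5e and Gpr83 were the members with negative differences near 0.2 in both subsets, a pair chosen after their values were seen, and averaged over both subsets they differed by -0.24 (unadjusted P = 0.0161, adjusted P = 0.663) and -0.21 (unadjusted P = 0.0722). Neither passed the adjusted threshold of the average, at which 0.0856% of all were called. The genotype effect was compared between eTregs and cTregs by an interaction term, for which 0 of 9 members passed the adjusted threshold (0% of all) or the study threshold (3.05% of all), and 0 had an unadjusted P below 0.05. Its largest sizes among members that differed between subsets were those of Ikzf2 (-0.34, interval -0.68 to 0.0036, adjusted P = 0.816) and Nrp1 (-0.33, interval -0.73 to 0.06, adjusted P = 0.846). The smaller subset differences of Ikzf2 and Nrp1 in the KO arrays than in controls therefore did not pass a test of the difference, and their intervals also hold no difference.

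**Figure D4:**
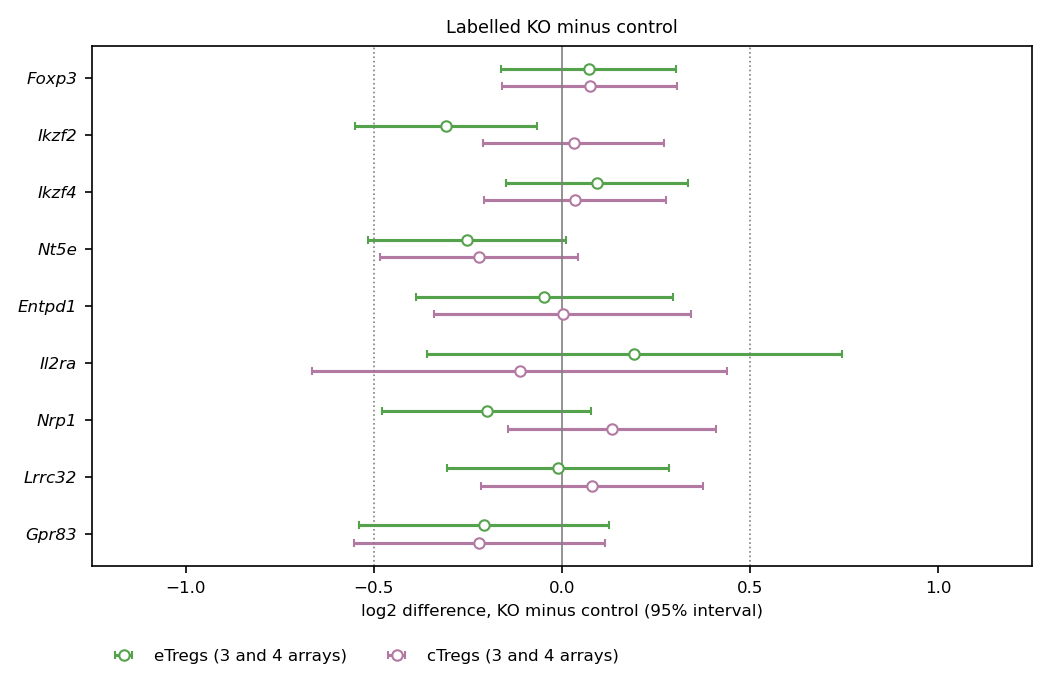
Log2 difference of arrays labelled KO minus controls for each identity gene, in eTregs (green) and cTregs (purple), with 95% intervals from limma and dotted lines at 0.5 in each direction, where an open circle marks a gene that did not pass the adjusted threshold. All 18 circles are open, and the interval of Ikzf2 in eTregs (-0.55 to -0.07) lies below 0.

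Promoters were set beside the 3 members with the clearest subset differences for which a sequence was held, to show what Nt5e and Nrp1, which rose together, and Gpr83, which ran opposite, carry next to their start sites. The RefSeq promoter set on GRCm38.p6 (250 bases before the start to 50 after it, 5′ to 3′) held 6 of the 9 members and no entry for Ikzf2, Ikzf4 or Lrrc32. Capitals mark matches, on either strand, to 6 motifs: TAAACA (forkhead core), TGTGGT (RUNX), TTCNNNGAA (STAT), TGANTCA (AP-1), TGGGAA (Ikaros core) and GGGCGG (GC box), where N is any base.
Nt5e, chr9:88327359-88327658, plus strand: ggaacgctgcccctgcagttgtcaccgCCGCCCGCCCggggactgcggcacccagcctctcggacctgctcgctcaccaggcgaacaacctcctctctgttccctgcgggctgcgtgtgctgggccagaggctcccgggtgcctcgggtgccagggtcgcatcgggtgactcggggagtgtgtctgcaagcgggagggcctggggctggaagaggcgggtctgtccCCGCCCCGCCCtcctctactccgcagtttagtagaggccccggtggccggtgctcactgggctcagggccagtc
Nrp1, chr8:128358823-128359122, plus strand: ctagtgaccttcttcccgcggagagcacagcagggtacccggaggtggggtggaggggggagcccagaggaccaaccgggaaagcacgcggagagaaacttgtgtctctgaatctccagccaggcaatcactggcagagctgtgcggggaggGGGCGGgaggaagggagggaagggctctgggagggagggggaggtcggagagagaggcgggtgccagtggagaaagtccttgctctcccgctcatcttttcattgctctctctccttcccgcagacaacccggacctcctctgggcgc
Gpr83, chr9:14859960-14860259, plus strand: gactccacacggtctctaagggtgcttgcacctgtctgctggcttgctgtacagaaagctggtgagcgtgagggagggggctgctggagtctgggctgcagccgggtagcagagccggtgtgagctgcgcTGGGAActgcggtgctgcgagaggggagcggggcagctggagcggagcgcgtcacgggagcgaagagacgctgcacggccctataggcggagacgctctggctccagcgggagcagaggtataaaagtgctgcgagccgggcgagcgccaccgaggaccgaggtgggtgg
The Nt5e promoter held 4 copies of the GC box, 2 pairs of overlapping or adjoining copies with first bases 223, 219, 24 and 19 bases before the start. Nrp1 held 1 copy, beginning 98 bases before the start, and Gpr83 none, while 35.7% of 32851 promoters held at least 1. Gpr83 held the Ikaros core once, 120 bases before its start, a match found in 25.6% of all. The G and C content was 71% for Nt5e, 64% for Nrp1 and 67% for Gpr83 against a median of 52.7%.

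None of the 3 sequences held the forkhead, RUNX, STAT or AP-1 letters, which were present in 13.4%, 16.8%, 8.3% and 7.81% of all promoters. The forkhead core lay in the upstream one of both Foxp3 promoters, 177 bases before the start, and the STAT letters in the downstream one, 139 bases before it. The RUNX letters lay 35 bases after the downstream start of Entpd1, and the Il2ra promoter held none of the 6 motifs. The Ikaros core was not particular to Gpr83. It also lay 157 bases before the upstream start of Entpd1 and 4 bases after the upstream start of Foxp3. No match overlapped a match of another motif. These are matches of letters in a short window and no measure of binding.

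The gene annotation of the array placed the members at the cell surface and in the nucleus. The term cell surface was attached to 4 of 9 (Entpd1, Il2ra, Nrp1 and Nt5e) and to 2.77% of all transcript clusters, and nucleus to 3 of 9 (Foxp3, Ikzf2 and Ikzf4) and to 26% of all. Integral component of membrane was attached to the 6 members outside the nucleus, against 29.3% of all. Of the 3 members that rose in control eTregs, Ikzf2 carried the nuclear term and Nt5e and Nrp1 the surface term.

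Of 18 other genes of the Treg signature, 9 rose and 1 fell in controls at the adjusted threshold, with a median difference of 0.57 against 0.00264 over all. Tigit, an inhibitory receptor, rose by 3.85 (adjusted P = 1.5e-06), Penk, the precursor of enkephalin, by 1.89 (adjusted P = 3.96e-05) and the suppressive cytokine Il10 by 1.87 (adjusted P = 0.00153). The costimulatory receptor Icos rose by 1.69, the inhibitory receptor Klrg1 by 1.65 and the integrin subunit Itgae by 1.61. Ecm1, named after its values were seen, was the gene that fell, by 0.54. In the KO arrays 6 rose and 1 fell (median 0.53 against -0.04 over all), among them Tigit by 3.18, Penk by 2.02, Il10 by 1.51, Icos by 1.27, Itgae by 1.21 and Plagl1 by 0.80. In both genotype contrasts 0 of 18 passed the adjusted threshold, with 2 (eTregs) and 3 (cTregs) at an unadjusted P below 0.05. The Ecm1 call in controls was lost on removal of any control array except control cTreg 1 (-0.59 to -0.50). Il10 was lost in the KO arrays without KO cTreg 1, 2 or 3 or KO eTreg 2 or 3 (1.05 to 1.60), Itgae without control cTreg 2, KO cTreg 1 or 2 or KO eTreg 2 or 3 (0.99 to 1.26) and Plagl1 without KO cTreg 1 or 3 or KO eTreg 2 or 3 (0.69 to 0.79). Tigit (2.30) and Penk (1.65) kept their calls without KO eTreg 2 and KO eTreg 3 together, while Icos (0.62), Il10 (0.68), Itgae (0.72), Plagl1 (0.50) and Ecm1 (-0.26) did not, and Icos was also lost with the KO arrays fitted alone (adjusted P = 0.0671).

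Genes typical of conventional T cells moved in both directions. Of 16, 3 rose and 6 fell in control eTregs at the adjusted threshold, with a median of -0.11. The cytokine genes Ifng, Il4 and Il21 rose by 2.24, 1.67 and 1.31, and Dapl1, Igfbp4 and Satb1 had differences of -1.35, -1.1 and -1.08. Among KO arrays 3 rose and 5 fell, with Il4 higher by 2.24, Il21 by 1.91 and Ifng by 1.91, and with differences of -1.11 for Dapl1, -0.85 for Igfbp4 and -0.75 for Satb1. The Igfbp4 call there was lost without KO cTreg 2 or 3 or KO eTreg 3 (-0.88 to -0.65). Il4 (1.92) and Il21 (1.94) kept their calls on leaving out KO eTreg 2 and KO eTreg 3 together, and Ifng (1.12), Dapl1 (-0.83), Igfbp4 (-0.67) and Satb1 (-0.40) lost theirs. The summed signal of 11 CD8 T and NK cell markers was 4423 to 5775 in control cTregs, 4465 to 6571 in KO cTregs and 6015 to 6652 in control eTregs, and 5965, 8058 and 9170 in KO eTregs. Of these markers Klrb1c (2.20) and Nkg7 (1.43) rose and Prf1 (-1.30) and Cd8b1 (-0.62) fell in control eTregs. Ifng and Klrg1 are also expressed by CD8 T and NK cells, and the part of those cells was not tested. Il21 was also the 1 gene of this list past the adjusted threshold between KO and control eTregs, higher by 0.80 (adjusted P = 0.0354), a call lost on subtraction of the 75th percentile of each array (0.78), with the eTreg arrays fitted alone (adjusted P = 0.178), without KO eTreg 2 and KO eTreg 3 together (0.82), and without any of control cTreg 1, control cTreg 3, KO cTreg 3, control eTreg 2, control eTreg 3, control eTreg 4, KO eTreg 2 or KO eTreg 3 (0.70 to 0.85).

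The genes whose profiles over the 14 arrays lay closest to the 3 members that rose were found by the root mean square difference of centred log2 signals. For Ikzf2 they were Rab8b at 0.095 and Rnf43 at 0.116, where the median over all transcript clusters was 0.38. For Nt5e they were Trps1 at 0.149 and Cdc14a at 0.162 (median 0.519), and for Nrp1 they were Sla at 0.119 and Arntl at 0.12 (median 0.383). Having been chosen by profile over these arrays, the 6 share the members' direction by construction, with subset differences of 0.53 to 1.00 in controls and 0.48 to 0.99 in KO arrays.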

How the data were processed

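RNA of 14 sorted Treg samples was hybridised to Clariom S mouse arrays. Per the labels, the authors used RMA (robust multi-array average) and Affymetrix Expression Console 1.1. The deposited unit is the log2 signal of a transcript cluster. This method quantile normalises probes over all arrays, so a shift shared by most genes would be removed. Of 28846 entries, 6640 control probe sets and 3 without a gene symbol were left out and 22203 were tested. The means of the 4 groups were fitted in limma 3.58.1 under R 4.3.3, with moderated tests on 10 residual plus 5.65 prior degrees of freedom, two-sided P values and Benjamini-Hochberg adjustment over all 22203. The methods ask for an absolute log2 difference of 0.5 or more with either adjusted or unadjusted P below 0.05, and both were used. Files were read with the data.table package (1.17.8), and the script was tested on simulated data. Alternatives were other scalings, a filter, array weights, other priors, replicate blocks and leaving out arrays.

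The members and all gene lists were chosen with earlier results of these data known, so no list is independent evidence. Marker sums add linear signals (2 to the power of the log2 value). The text names the members, Atg14, Cd44, up to 6 genes per list of largest change among those past the adjusted threshold with no overlap between arrays, and the 2 genes most like each member that rose. Another gene that the rule names is not reported here. Other names are said to be chosen after seeing values. Which cTreg and eTreg arrays shared a mouse is not given, so arrays were fitted as independent. The identifiers have no stated genome build, so coordinates are those of the RefSeq promoters.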

Additional observations from a re-analysis of the deposited data

Results flagged for a closer look

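Among 22 groups of 4 control arrays (11 genes in 2 groups), 1 held an array whose gap to its nearest neighbour exceeded, as a share of the group's whole range, Dixon's 95% critical value, which chance does for about 1 group in 20. In control eTregs, Nrp1 of control eTreg 1 was 11.48 against 11.83 to 11.86 on the other 3 arrays, a gap of 0.913 of the range. Leaving out control eTreg 1 kept the rise of Nrp1 past the adjusted threshold.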

How the results depend on the processing

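The rises of Ikzf2, Nt5e and Nrp1 in control eTregs passed the adjusted threshold in all 24 alternatives run for each (0.65 to 0.76, 0.82 to 0.99 and 0.64 to 0.77). The rise of Nt5e in the KO arrays passed in 24 of 25, the exception being the removal of KO eTreg 2 and KO eTreg 3 together, chosen after seeing the data, which left 0 of 9 members called there. Gpr83 in controls passed in 8 of 24 (-0.60 to -0.41, adjusted P = 0.00404 to 0.238). Past the study threshold, controls had 3 to 6 members across alternatives against 4, with Il2ra joining in 10 of 23 and Entpd1 without control cTreg 4. In the KO arrays Gpr83 joined Nt5e, making 2 members past the adjusted threshold, with array weights, and leaving out 1 array gave 1 to 2 (2 without KO eTreg 1). Past the study threshold there were 2 on subtraction of array medians or 75th percentiles, with quantile normalisation and with array weights, and 1 to 2 on leaving out an array (2 when KO eTreg 1, KO cTreg 3 or KO cTreg 1 was removed). With the 75th percentile subtracted, 0 pathway list genes passed between KO and control eTregs.

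No value that changed sign passed the adjusted threshold. Between subsets in controls they were Foxp3 (-0.028) and Lrrc32 (-0.014) with array medians subtracted and Lrrc32 (-0.0036) with array weights, and in the KO arrays Foxp3 with 75th percentiles subtracted (-0.017) or array weights (-0.078). Between KO and control eTregs they were Il2ra (-0.0035) and Entpd1 (0.040) with array weights, Entpd1 (0.0395) with the replicate block across genotypes and Lrrc32 (0.0020) with medians subtracted. In cTregs they were Ikzf4 (-0.0037) with array weights and Entpd1 (-0.017) with medians subtracted. Without KO eTreg 2 and KO eTreg 3 together, Ikzf4 (0.13), Il2ra (0.26) and Lrrc32 (0.15) changed sign between subsets in the KO arrays, and Lrrc32 (0.20) and Gpr83 (0.20) between KO and control eTregs. On leaving out each array in turn, the subset difference ranged in controls from -0.012 to 0.041 for Foxp3 and -0.056 to 0.072 for Lrrc32, and in the KO arrays from -0.093 to 0.11 for Foxp3, -0.11 to 0.0449 for Ikzf4 and -0.17 to 0.098 for Lrrc32. The KO minus control difference in eTregs ranged from -0.036 to 0.13 for Foxp3, -0.0358 to 0.40 for Il2ra, -0.16 to 0.066 for Entpd1 and -0.12 to 0.061 for Lrrc32. In cTregs it ranged from -0.0167 to 0.15 for Foxp3, -0.058 to 0.087 for Ikzf2, -0.028 to 0.12 for Ikzf4, -0.26 to 0.060 for Il2ra, -0.074 to 0.15 for Entpd1 and -0.077 to 0.17 for Lrrc32. The causes were not tested.

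Replicate numbers are shared between groups. Deviations of same-numbered cTreg and eTreg arrays correlated at 0.0707 to 0.222 in controls and 0.0443 to 0.303 in KO arrays, and 12 of 14 arrays correlated best with their own number. Same-numbered control and KO arrays correlated at 0.082 to 0.258 in cTregs and 0.0101 to 0.291 in eTregs. What arrays of the same number share is not stated and was not tested. The main fit took arrays as independent, which leaves such structure out, and block fits are given beside it. With the replicate block within genotype, 3 members passed between subsets in controls and 1 in the KO arrays, as without it, and a random block (correlation 0.238) gave 4, with Gpr83 added (adjusted P = 0.0286). Il2ra passed the study threshold in controls in all 3 block fits.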
